A study of Mus musculus with 4 samples.

Results

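The transcripts described here are those of the myosin heavy chain genes Myh6, Myh7, Myh7b, Myh3, Myh11, Myh9, Myh10 and Myh14 and of the noncoding antisense gene Mhrt, which were picked by gene symbol from a table of RefSeq transcripts. They were 9 of the 23934 gene symbols in that table, and where a gene had several transcripts the one with the most reads was kept. RNA was sequenced from mouse cardiac progenitor cells (CPCs) after 5 days of directed differentiation from embryonic stem cells (ESCs) of the E14 Tg(Nkx2-5-EmGFP) line, which carries a green fluorescent reporter of the cardiac gene Nkx2-5, and GFP-positive CPCs were collected by flow cytometry. There were 2 Baf60c knockdown (KD) libraries, from ESCs that stably express a short hairpin RNA against Baf60c, and 2 control libraries, from ESCs with the pLKO control vector. Baf60c, the product of Smarcd3, is a subunit of the SWI/SNF chromatin remodeller that is prominent in heart and somites. Both groups carry the reporter and were maintained on feeder cells before differentiation. Libraries came from ESC pools, but how many pools there were per group is not clear from the labels, so the p-values below rest on the spread from library to library, part or all of which may be technical.

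The kept transcripts of the coding table held 13199243 and 17649363 reads in the Baf60c KD libraries, against 13317598 and 12623031 reads in the control libraries. Smarcd3, the target, stood at 46.4 and 46.3 RPKM (read density per kilobase, scaled to the library's total of counted reads) in Baf60c KD CPCs, against 173.9 and 166.8 RPKM in control CPCs, which is 3.67-fold lower after knockdown (log2 fold change −1.85, limma adjusted p = 2.68e-10). In the mm9 build, 2466 of the 4545 annotated exon bases of Smarcd3 are shared with Chpf2 on the opposite strand. Reads of both strands were counted, so the Smarcd3 level may include reads of Chpf2. How much of the overlap lies in the kept transcript was not computed. All 6 cardiac markers examined (Nkx2-5, Tnnt2, Actn2, Actc1, Tnni1, Myl7) were present in every library, and the skeletal muscle regulators Myod1, Myog, Myf5, Myf6 and Pax7 had at most 3 reads in any library.

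Myosin heavy chains are the motor subunits that bind actin and hydrolyse ATP, and each pairs with light chains that stiffen and regulate its lever arm. In the heart, α-myosin heavy chain (Myh6) is the fast form and β-myosin heavy chain (Myh7) the slow form, and in the mouse ventricle Myh7 prevails before birth and Myh6 after it. Non-muscle myosin II chains (Myh9, Myh10, Myh14) build the contractile bundles of motile and dividing cells. Mhrt, the myosin heavy chain associated RNA transcript, is read from the opposite strand of the cardiac myosin locus and has been described in the mouse heart as a partner of Brg1, the ATPase of the SWI/SNF complex.

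Myh6, Mhrt and Myh7 lie side by side on chromosome 14. The sequences upstream of their RefSeq start sites are shown because the 3 transcripts are followed together below. In the mm9 build Myh6 spans 55560758 to 55585764 and Myh7 spans 55589525 to 55613471, both on the minus strand. In the RefSeq list of genes Mhrt starts between these genes on the plus strand and runs into Myh7, with 65.9% of its span inside Myh7. The stretches below come from the RefSeq windows upstream of each start (GRCm38.p6), were matched without a mismatch to mm9, and leave out every base that the mm9 annotation places in an exon. They are the 216 bases at chr14:55585479-55585694 for Myh6 (minus strand), the 250 bases at chr14:55587374-55587623 for Mhrt (plus strand) and the 242 bases at chr14:55613472-55613713 for Myh7 (minus strand, the upstream of its 2 start sites). The RefSeq start of Myh6 differs from the start in mm9, where the gene begins farther upstream. In mm9 the whole Myh6 stretch therefore lies inside the Myh6 span given above, outside its exons. Capitals mark matches on either strand to the muscle CAT element CATTCC, which in its reverse complement reads GGAATG, and to the GATA motif AGATAA (also with a first T, a last G or both).
Myh6: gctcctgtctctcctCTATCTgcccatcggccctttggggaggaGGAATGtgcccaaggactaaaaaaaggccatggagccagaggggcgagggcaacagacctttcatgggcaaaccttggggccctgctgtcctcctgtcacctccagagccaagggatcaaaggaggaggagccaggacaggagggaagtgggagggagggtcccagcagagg
Mhrt: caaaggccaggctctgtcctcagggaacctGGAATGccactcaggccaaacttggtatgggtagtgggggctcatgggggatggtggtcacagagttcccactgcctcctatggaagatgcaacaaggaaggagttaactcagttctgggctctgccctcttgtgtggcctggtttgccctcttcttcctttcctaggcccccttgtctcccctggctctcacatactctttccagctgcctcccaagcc
Myh7: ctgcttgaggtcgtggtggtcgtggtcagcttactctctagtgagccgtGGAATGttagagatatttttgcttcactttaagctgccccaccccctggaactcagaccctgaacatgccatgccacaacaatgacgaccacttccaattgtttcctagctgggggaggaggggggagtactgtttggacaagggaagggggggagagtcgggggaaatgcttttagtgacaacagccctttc
CATTCC stood once in each stretch shown, from −206 to −201 before the Myh6 start, from −220 to −215 before the Mhrt start and from −201 to −196 before the Myh7 start, and 12.6% of the 32851 RefSeq windows of 250 bases held it. The window of the other Myh7 start, which is not shown, held no CATTCC. Among the other members with a window only Myh10, which was higher after knockdown, had a match, from −7 to −2. The whole window of Myh10, like the stretch of Myh6, lies inside the span of its gene in mm9. The GATA match stood from −235 to −230 before the Myh6 start, and 26.5% of all windows held one. Myh7b also had one, from −133 to −128. The search also covered TATAAA (found in 12.4% of all windows), CACGTG (6.02%), AGGTCA (14%), AGGTGT (11.8%) and CCAAT (33.8%). TATAAA matched in Myh3 and Myh9, CACGTG and AGGTCA in Myh7b, and AGGTGT in Myh10. CCAAT matched in Myh7, Myh9, Myh10 and Myh14 and is not marked in the Myh7 stretch. No CArG box (found in 1.47% of all windows) and no MEF2 site (2.92%) lay in the 250-base windows of the members, 8 of which have an entry in the list of promoters. Myh11 has none, so its upstream sequence was not searched for any motif. The non-muscle genes Myh9, Myh10 and Myh14 had 14, 15 and 14 CpG dinucleotides in these windows, whereas Myh6, Myh7b and Myh3 had 2, 3 and 4, the start sites of Myh7 had 2 and 5, and Mhrt had 0, beside a median of 6 over all windows. A motif match describes the letters and says nothing about a factor's binding.

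The locus and its relative on chromosome 2 also hold the cardiac microRNAs known as MyomiRs, whose mature sequences are shown to place them beside their host genes. Mir208a lies in intron 29 of Myh6 (chr14:55567897-55567979), Mir208b in intron 31 of Myh7 (chr14:55594537-55594613) and Mir499 in intron 19 of Myh7b (chr2:155448616-155448694), each on the strand of its host and outside all host exons in mm9. Capitals mark the seed, bases 2 to 8, in the RefSeq mature sequences.
miR-208a-3p: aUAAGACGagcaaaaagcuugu
miR-208b-3p: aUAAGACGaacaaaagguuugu
miR-499-5p: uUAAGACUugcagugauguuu
The miR-208 forms share 1 seed and differ at 3 positions counted from the 5′ end (G10A, A16G and C18U, miR-208a-3p first). The seed of miR-499-5p (UAAGACU) differs from that of the miR-208 forms (UAAGACG) only at base 8. The libraries were made from polyA RNA, and the miRNA rows were close to empty. Mir208a had 1 and 0 reads in Baf60c KD against 1 and 1 in control, Mir208b had 1 and 3 against 2 and 3, and Mir499 had 0 in every library, where a count of 0 allows up to 3 reads. Mir208b entered the test and did not pass (log2 fold change −0.36, limma adjusted p = 0.541).

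After knockdown of Baf60c the muscle heavy chains Myh6, Myh7 and Myh7b and the smooth muscle chain Myh11 were lower, and the non-muscle chains Myh9 and Myh10 were higher. Of the 8 coding members, 6 had a mean of at least 0.5 RPKM and were tested, and each of these 6 reached that mean in both groups. Myh3 and Myh14 were below it. All 6 were called at an adjusted p of 0.05 by limma (Benjamini-Hochberg over 11368 genes), 4 of them lower and 2 higher in Baf60c KD. Over all genes tested, 18.2% were lower and 36.1% higher, so a call alone sets a member apart little. The size of the change was less common, since 1.26% of the genes were lower by more than 2-fold on the log2(RPKM + 1) scale, and all 4 lower members were among them. The split of all calls depended on the scaling of the libraries, with 4103 higher and 2073 lower genes as deposited and 2913 higher and 2900 lower with median-ratio scaling, whereas the 6 members kept their direction and call under both.

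**Figure D1:**
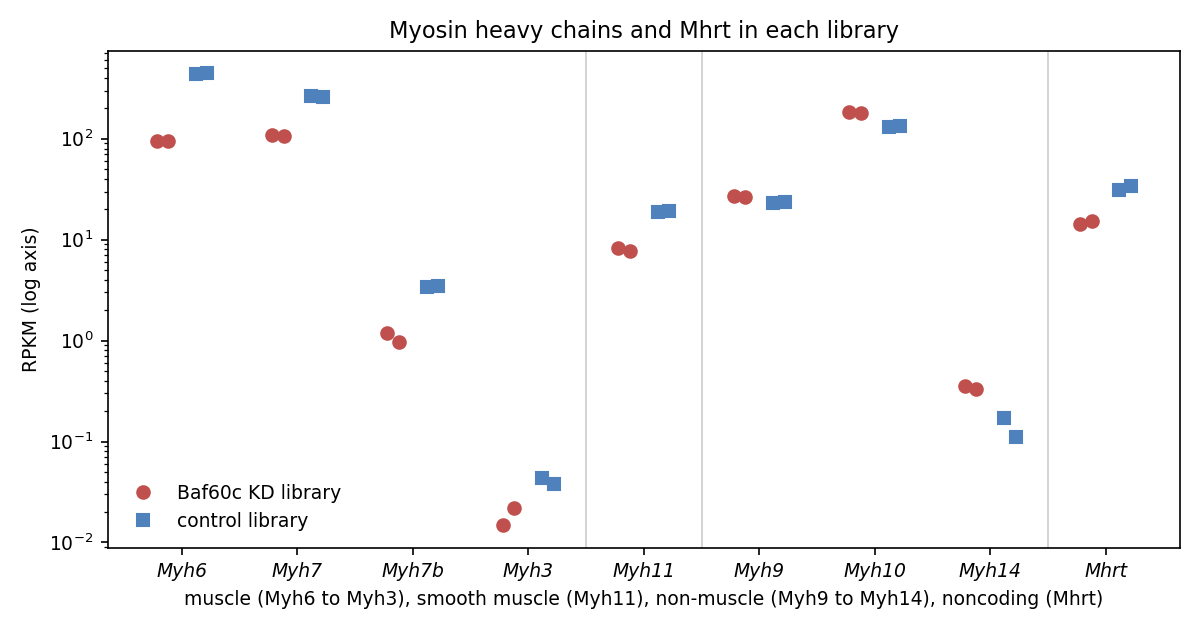
RPKM (log axis) of the 8 myosin heavy chains and Mhrt in each library, with Baf60c KD libraries as red circles left of control libraries as blue squares. Myh6, Myh7, Myh7b, Myh11 and Mhrt lie lower and Myh9, Myh10 and Myh14 higher in both Baf60c KD libraries than in either control library. Mhrt was scaled in a table of its own.

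Myh6 changed most among the members. It had 95.8 and 95.3 RPKM in the Baf60c KD libraries, against 435.8 and 444.6 RPKM in the control libraries (13141 and 17500 reads against 61136 and 59227). The replicates lay close together and the groups did not overlap. The mean was 95.6 ± 0.333 RPKM in Baf60c KD and 440.2 ± 6.19 RPKM in control (SD, n = 2 each), which is 4.61-fold lower, with a log2 fold change of −2.19 and a standard error of 0.023 (limma adjusted p = 2.79e-11). Ordered by fold change, Myh6 was number 8 from the lowest of all 11368 genes. By RPKM it ranked 262 and 268 among the genes with a read in the Baf60c KD libraries and 24 and 22 in the control libraries. Myh6 had a shorter RefSeq transcript as well (NM_010856 beside NM_001164171). The longer one has 64 more bases and held 75 and 78 more reads in Baf60c KD and 357 and 341 more in control. Which exons differ between them was not compared.

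Myh7 was lower by less. Its level was 109.8 and 107.0 RPKM in Baf60c KD CPCs, against 262.2 and 259.5 RPKM in control CPCs. The groups were again well apart. The difference was 2.41-fold, with a log2 fold change of −1.26 and a standard error of 0.025 (limma adjusted p = 8.83e-10), and Myh7 was number 68 from the lowest in the order of fold changes. In the mm9 transcripts, 22.8% of the 50-base stretches of Myh6 also occur in Myh7, with a longest shared run of 245 bases. The sources used here do not give how reads that match both genes were counted, so the levels of either gene carry that uncertainty.

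The proportion of α to β chain was turned round between the groups. The Myh6 to Myh7 ratio of RPKM was 0.873 and 0.891 in Baf60c KD libraries, against 1.66 and 1.71 in control libraries. Myh7 was the more abundant cardiac chain in both Baf60c KD libraries and Myh6 in both control libraries. Of the reads of both genes, Myh6 took 46.7% (95% Wilson interval 46.1 to 47.3) and 47.2% (46.7 to 47.7) in Baf60c KD and 62.5% (62.2 to 62.8) and 63.2% (62.9 to 63.6) in control. These intervals cover counting error only. The log2 ratio differed by −0.94 between the groups, with a mean of −0.18 ± 0.021 in Baf60c KD and 0.75 ± 0.031 in control (SD, n = 2 each). An exact two-sided permutation test over the 4 libraries gave p = 0.333, the smallest value that 2 against 2 libraries can give.

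**Figure D2:**
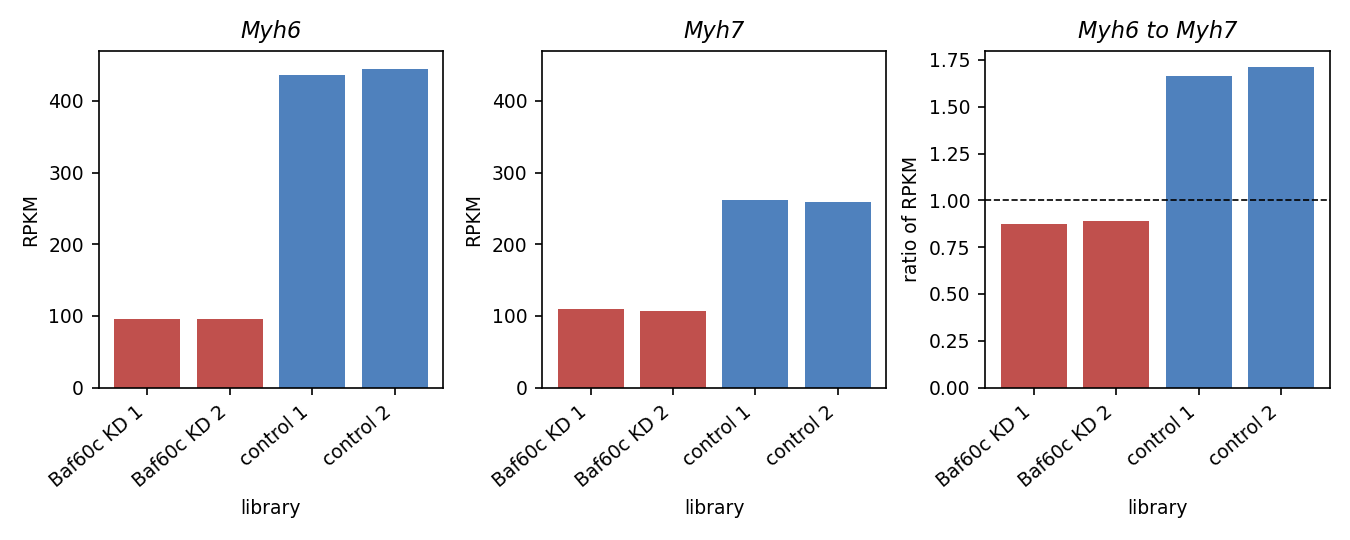
Myh6 RPKM, Myh7 RPKM and their ratio in each of the 2 Baf60c KD (red) and 2 control (blue) libraries, as bars that start at 0, with a dashed line at a ratio of 1. The ratio is 0.873 and 0.891 in Baf60c KD, below the line, and 1.66 and 1.71 in control, above it.

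Myh7b, a slow chain that is expressed at low levels in heart, skeletal muscle and brain and hosts Mir499, had 1.19 and 0.967 RPKM in Baf60c KD and 3.37 and 3.46 RPKM in control (164 and 179 reads against 476 and 465). The groups did not overlap, and the RPKM was 3.17-fold lower after knockdown. The fitted log2 fold change of RPKM + 1, a scale that shrinks the differences of weakly expressed genes, was −1.09 ± 0.077 (SE, limma adjusted p = 2.63e-06), and with voom on the recovered reads it was −1.69. In mm9 Myh7b (chromosome 2, 155436948 to 155460043, plus strand) shares 37 exon bases with Trpc4ap on the opposite strand. Myh3, the embryonic skeletal chain on chromosome 11, had 2 and 4 reads in Baf60c KD and 6 and 5 in control, too few to compare.

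The other muscle heavy chains in the table, Myh1, Myh2, Myh4, Myh8, Myh13 and Myh15, all stayed under the level for testing, 0 of 6 being tested. Myh2, the chain of fast oxidative skeletal fibres, was the only one of them above 6 reads in any library. It had 16 and 16 reads in Baf60c KD, against 88 and 55 in control, so both control libraries were higher, with an RPKM of 0.117 and 0.0871 against 0.627 and 0.413. Fitted without the filter on low values, its log2 fold change was −0.46 (limma adjusted p = 0.00387). Myh2 shares 237 exon bases with 9430073C21Rik on the opposite strand, and 0% of its 50-base stretches occur in Myh6 or Myh7.

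Myh11, the smooth muscle heavy chain, had 8.18 and 7.80 RPKM in Baf60c KD and 18.9 and 19.0 RPKM in control. It was 2.38-fold lower after knockdown with no overlap of the groups, at a log2 fold change of −1.15 and a standard error of 0.045 (limma adjusted p = 5.01e-08). The smooth muscle markers did not all move with it. Of the 6 examined, Acta2 (−0.60), Cnn1 (−0.93), Lmod1 (−0.20) and Myocd (−0.69) were lower, Tagln (0.50) was higher and Smtn (−0.02, limma adjusted p = 0.690) did not pass. Their summed level was 821 and 815 RPKM in Baf60c KD and 1157 and 1153 RPKM in control, and their part in the Myh11 result was not tested.

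Among the non-muscle chains, Myh10 (non-muscle myosin IIB, the isoform long known from embryonic heart and brain) was the most abundant. It had 185.3 and 181.1 RPKM in Baf60c KD CPCs, against 131.1 and 135.1 RPKM in control CPCs, 1.38-fold higher with no overlap. Its log2 fold change was 0.46 ± 0.027 (SE, limma adjusted p = 7.57e-07). Myh9 (non-muscle myosin IIA, prominent in blood, endothelial and other migrating cells) had 26.9 and 26.4 RPKM in Baf60c KD and 23.0 and 23.5 RPKM in control. That rise was small, at a log2 fold change of 0.19 ± 0.037 (SE, limma adjusted p = 0.00199), and was 0.11 (adjusted p = 0.0298) with median-ratio scaling. Myh14 (non-muscle myosin IIC) was near the limit of detection, with 52 and 65 reads in Baf60c KD against 26 and 16 in control, and was not tested for that reason. Its RPKM was 0.354 and 0.330 against 0.173 and 0.112, and fitted without the filter it came out at 0.23 on the log2 scale (limma adjusted p = 0.00704).

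Ordered by level, the non-muscle chain Myh10 stood first in Baf60c KD CPCs, followed by Myh7, Myh6, Myh9, Myh11, Myh7b, Myh14 and Myh3. In control CPCs the order was Myh6, Myh7, Myh10, Myh9, Myh11, Myh7b, Myh14 and Myh3. Each gene lay above its next neighbour in both libraries of the group, so the order was the same in replicates. The summed RPKM of the 8 chains was 427.5 and 419.0 in Baf60c KD and 874.6 and 885.4 in control, and the muscle chains Myh6, Myh7, Myh7b and Myh3 made up 48.4% and 48.5% of it in Baf60c KD and 80.2% and 79.9% in control. The share differed by −31.6 percentage points (exact two-sided permutation p = 0.333, the smallest possible). Myh10 alone held 43.3% and 43.2% of the sum in Baf60c KD, against 15.0% and 15.3% in control. In RPKM, the muscle chains summed to 206.8 and 203.4 in Baf60c KD, against 701.4 and 707.6 in control, and the non-muscle chains to 212.5 and 207.8 against 154.3 and 158.7. In bulk RNA, fewer cells of a type and less RNA per cell cannot be told apart.

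**Figure D3:**
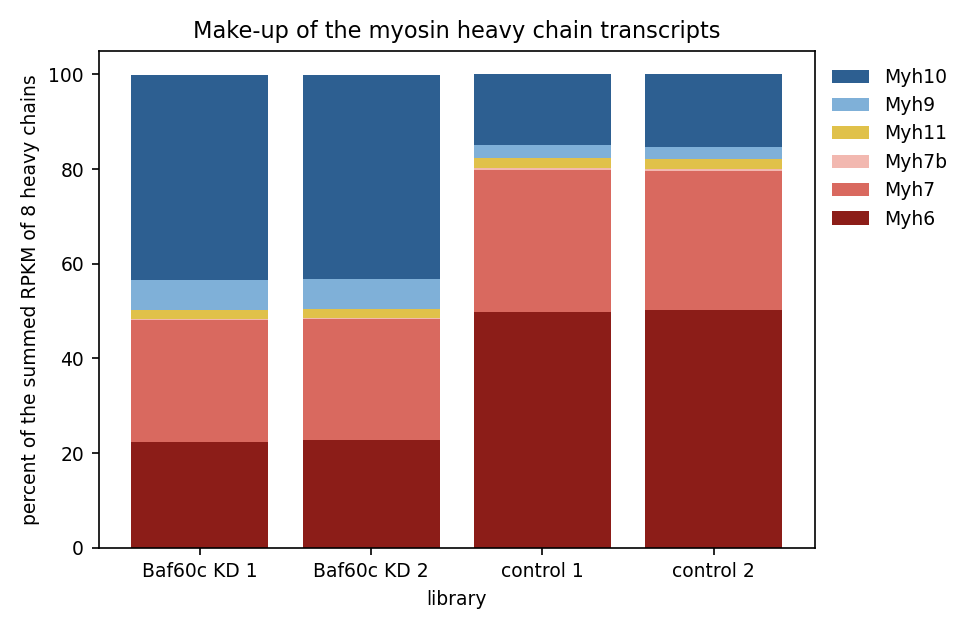
Share of each chain in the summed RPKM of the 8 myosin heavy chains, in percent, as stacked bars for the 2 Baf60c KD and 2 control libraries (Myh3 and Myh14 are too low to be drawn). Myh10 (dark blue) holds 43.3% and 43.2% in Baf60c KD against 15.0% and 15.3% in control, and Myh6 (dark red) 22.4% and 22.8% against 49.8% and 50.2%.

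Mhrt (NR_033497) was lower after knockdown, with a call that was lost under several alternatives. It had 271 and 391 reads in Baf60c KD libraries and 600 and 623 reads in control libraries, at 14.4 and 15.5 RPKM against 31.1 and 34.0 RPKM. The groups did not overlap and the mean RPKM was 2.18-fold lower. In the noncoding table, where 487 genes were tested, its log2 fold change was −1.08 ± 0.078 (SE, limma adjusted p = 0.0268). There, 1.85% of the genes were called lower and 1.64% higher. The adjusted p was 0.0729 without the filter on low values. It lay between 0.157 and 0.283 when any 1 of the 4 libraries was left out, in fits where the spread comes from the other group alone and the remaining library is assumed to vary like it, and the log2 fold change stayed between −1.01 and −1.15 in all alternatives.

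Reads of both strands had been accepted in counting, so reads of Mhrt cannot be told apart from Myh7 reads wherever their exons overlap. The span given above is of genes, and how many counted exon bases they share was not computed here. In reads per kilobase, Mhrt stood at 13.2% and 14.6% of Myh7 in Baf60c KD and at 11.97% and 13.2% in control, and these ranges overlap (log2 difference 0.14, exact two-sided permutation p = 0.667). Relative to Myh6 the level was 15.1% and 16.4% in Baf60c KD, against 7.20% and 7.72% in control. That log2 ratio was 1.08 higher in Baf60c KD with no overlap (exact two-sided permutation p = 0.333, the smallest possible). What share of the Mhrt reads came from Myh7 was not tested.

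Markers of cell types moved with the same contrast. The 6 cardiac markers were all lower in Baf60c KD, with a summed level of 2528 and 2585 RPKM against 5841 and 5649 RPKM in control, and single markers were lower by 1.39-fold (Nkx2-5) to 3.22-fold (Actc1). Myl7 supplied 51.2% to 51.7% of that sum in each library. Set against the summed markers, Myh6 stood at 3.79% and 3.69% in Baf60c KD and at 7.46% and 7.87% in control, whereas Myh7 stood at 4.34% and 4.14% against 4.49% and 4.59%. Set against cardiac troponin T (Tnnt2), Myh6 stood at 21.9% and 20.7% in Baf60c KD and 53.8% and 54.3% in control, and Myh7 at 25.1% and 23.2% against 32.4% and 31.7%. For Myh7 (2.41-fold lower) the direction depends on the marker chosen. Tnnt2 (1.81-fold), Nkx2-5, Tnni1 and Myl7 were lower by less than Myh7, and Actn2 (2.87-fold) and Actc1 (3.22-fold) by more. Myh6 and Myh7 were divided by the same value in each library. The larger gap for Myh6 on both scales therefore restates the Myh6 to Myh7 ratio given above.

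Fibroblast and feeder markers summed to 34.0 and 33.7 RPKM in Baf60c KD and 12.6 and 13.3 RPKM in control, with 4 of 4 tested higher and Lum at no more than 3 reads. Epicardial markers summed to 20.3 and 18.8 RPKM against 3.80 and 4.66 RPKM, with 4 of 4 tested higher. The blood markers summed to 19.2 and 20.3 RPKM against 5.22 and 5.52 RPKM, with Hbb-bh1 and Hba-x higher of 3 tested and Ptprc at 0 reads. Endothelial markers summed to 43.6 and 45.8 RPKM against 36.4 and 34.9 RPKM, with 3 of 6 higher and 3 lower. Pluripotency markers summed to 1.46 and 1.77 RPKM against 0.851 and 0.591 RPKM, and none was high enough to be tested. The skeletal list, with Actn3 as its only tested marker (0.23, limma adjusted p = 0.0435, and 0.0884 with median-ratio scaling), summed to 1.35 and 1.12 RPKM against 0.962 and 0.822 RPKM. The part of any of these cell types in the heavy chain results was not tested.

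The sarcomeric partners of the heavy chains were lower as well. All 6 sarcomeric light chains passed and were lower in Baf60c KD, with a median log2 fold change of −2.20 beside 0.07 over all genes tested. On the log2(RPKM + 1) scale the largest difference was that of Myl2, the ventricular regulatory light chain (1.48 and 1.16 RPKM in Baf60c KD against 17.1 and 15.5 in control, log2 fold change −2.90), followed by Myl1 (0.272 and 0.204 against 7.67 and 6.84, −2.74). As a ratio of the RPKM itself, the gap of Myl1 was the larger one. That ratio is imprecise, since Myl1 had only 5 and 5 reads in Baf60c KD, against 144 and 122 in control. The thick filament partners had 8 of 11 genes tested, all lower, with a median of −1.07. Among them Myom1, which crosslinks the M-band, had 24.4 and 24.4 RPKM in Baf60c KD against 84.3 and 84.3 in control (−1.75), and cardiac myosin-binding protein C (Mybpc3) had 9.85 and 10.6 against 33.9 and 31.7 (−1.59).

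The non-sarcomeric light chains and the myosin-folding genes held members called in both directions. Of the 5 non-sarcomeric light chains, Myl12b (0.60) and Myl12a (0.21) were higher, Myl9 (−0.73) and Myl6 (−0.36) were lower, and Myl6b (−0.14, limma adjusted p = 0.142) did not pass. Of 5 myosin-folding genes, the chaperones Hsp90aa1 (0.29) and Hsp90ab1 (0.12) were higher, the muscle chaperone Unc45b (−0.57) and the muscle methyltransferase Smyd1 (−0.21) were lower, and the general chaperone Unc45a (0.10, adjusted p = 0.116) did not pass. Median log2 fold changes were −0.14 for the light chains and 0.10 for the folding genes.

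**Figure D4:**
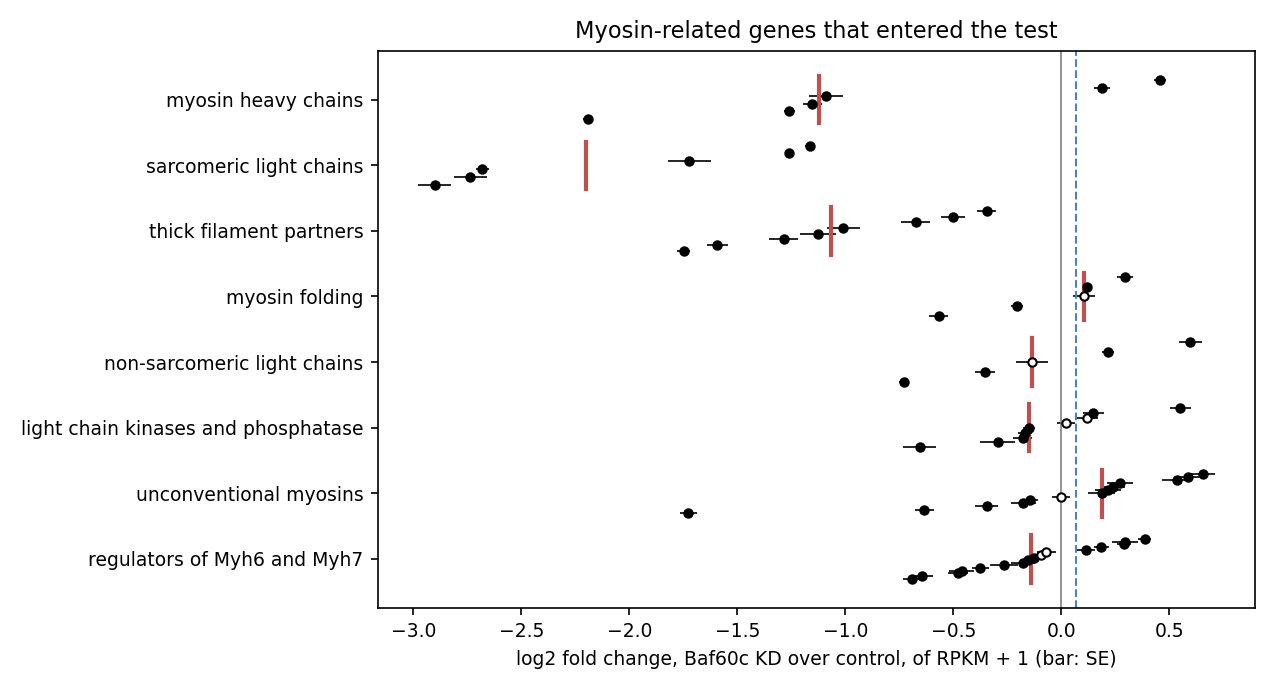
Log2 fold change of RPKM + 1, Baf60c KD over control, with its standard error, for every tested gene of the heavy chains and 7 related lists. Filled points passed an adjusted p of 0.05, red bars are list medians and the dashed blue line is the median of all genes tested (0.07). Sarcomeric light chains (median −2.20) and thick filament partners (−1.07) lie wholly below 0, and the other lists lie on both sides of it.

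Transcription factors and co-regulators known to act on Myh6 and Myh7 changed by less than the cardiac chains themselves. Of 16 tested out of 17, 9 were lower and 5 higher, and the median log2 fold change of all 16 was −0.14. The lower ones were led by the coactivator Myocd (26.5 and 27.2 RPKM in Baf60c KD against 42.9 and 45.2 in control, log2 fold change −0.69) and by Mef2a (10.1 and 10.5 against 15.9 and 17.4, −0.65). The higher ones were led by Gata4 (76.9 and 76.9 against 59.8 and 57.5, 0.39) and by Sox6 (4.06 and 4.02 against 3.12 and 3.09, 0.30). Sox6 encodes a repressor of slow fibre genes in skeletal muscle. With median-ratio scaling 11 were lower and 4 higher, Thra and Purb joining the lower ones and Sp3 leaving the higher ones. Thra, the thyroid hormone receptor gene expressed here, had 12.9 and 13.6 RPKM in Baf60c KD and 14.2 and 14.2 in control, a difference of −0.09 that did not pass as deposited (limma adjusted p = 0.103) and of −0.17 that did with median-ratio scaling (0.0116). The other receptor gene, Thrb, had at most 2 reads in any library.

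The genes nearest to Myh6 in pattern, by the Euclidean distance of the log2(RPKM + 1) values after subtraction of each gene's mean, were Kcnj5 (distance 0.077), Fosb (0.141), Chchd10 (0.291), Hspb3 (0.302) and Smarcd3 (0.343). Kcnj5, which encodes a subunit of the atrial acetylcholine-gated potassium channel, had 1.84 and 2.04 RPKM in Baf60c KD and 12.6 and 12.8 in control. Those nearest to Myh7 were Myl4 (0.034), Grip2 (0.035), Spon1 (0.045), Ptrf (0.051) and Slc8a1 (0.060). Myl4, the atrial essential light chain, had 356.5 and 358.9 RPKM in Baf60c KD and 867.1 and 850.4 in control, and Slc8a1, the sodium-calcium exchanger of heart muscle, had 19.1 and 19.1 against 45.2 and 46.3. With 4 libraries in 2 groups this distance mostly ranks genes by the closeness of their fold change.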

How the data were processed

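RNA-seq of 4 libraries of sorted day 5 CPCs was used, 2 Baf60c KD and 2 control, with groups and replicate numbers taken from the labels. The authors mapped reads to mm9 with STAR, counted them over RefSeq exons with HOMER on both strands, and deposited RPKM computed with edgeR. Tool versions are not given in the sources used here. Their deposited columns of DESeq2 fold changes, p-values and mean signal were not used.

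The table was a coding part of 31507 rows and a noncoding part of 4200 rows that were normalised separately, and each was tested on its own. RPKM times length times the library total gave whole reads for 100% of values (tolerance 0.001 reads). These totals ran from 22064092 to 30398452 per library in the coding part. They sum over all transcript rows, so a read that falls in several transcripts of a gene counts more than once. With 2 libraries per group, the spread is known imprecisely.

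The row with the highest RPKM times length was kept per symbol. Genes with a mean of at least 0.5 RPKM were tested with limma 3.58.1 (R 4.3.3) on log2(RPKM + 1), with a robust trended prior and Benjamini-Hochberg adjustment, and called at an adjusted p under 0.05. Single values per library were compared by exact permutation. The fit was tested on simulated data. Alternatives were a pseudocount of 0.1, no filter, median-ratio scaling, voom on recovered reads, a replicate block, every transcript row, the longest row per gene, and leaving out each library. Promoter and miRNA sequences are RefSeq (GRCm38.p6), and positions are GENCODE vM1 on mm9.

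The members and lists were chosen with earlier results of these data known. Named were all members, Smarcd3, the 2 genes per list and direction with the largest change among those called (all, where 5 or fewer were tested), and the 5 nearest neighbours of Myh6 and of Myh7. Myh2, Thra and Thrb were named after their values were seen.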

Additional observations from a re-analysis of the deposited data

How the results depend on the processing

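Myh6, Myh7, Myh7b, Myh11, Myh9 and Myh10 kept their direction and their call in all 10 alternatives run for each, with log2 fold changes from −2.27 to −2.18, −1.34 to −1.24, −1.69 to −1.01, −1.25 to −1.12, 0.11 to 0.20 and 0.38 to 0.48 in that order of genes. In the 4 of these that leave out a library, the spread comes from the other group alone and the lone library is assumed to vary like it, so those calls say little about stability. Myh14 passed only without the filter, which tests more genes. The Myh6 to Myh7 difference stayed between −0.91 and −0.96, the muscle chain share between −31.5 and −33.7 percentage points and the Mhrt to Myh6 difference between 1.02 and 1.14.

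Calls in the coding table numbered 6176, and 10317 with every transcript row, where 19001 rows were tested. In the noncoding table there were 17 calls, 2 without the filter (1406 genes tested) and 89 with voom. Leaving out any 1 library gave 0 calls in limma, with 61 to 79 genes at an unadjusted p under 0.05. The causes were not tested. Mhrt lost its call in 6 of 9 alternatives and kept it with a pseudocount of 0.1 (adjusted p = 0.0251, limma), median-ratio scaling (0.0294) and voom (7.04e-16).

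Replicate numbers were not shown to pair the samples, since deviations of same-numbered libraries correlated at 0.024 across coding genes. A replicate block gave 6165 coding calls, with all 6 members among them, and 1 noncoding call, without Mhrt (0.0925). Depth limits Myh3, Myh14, Myh7b and Mhrt most, and with 2 libraries per group a change in Myh3 (at most 6 reads) was not detectable.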

Other observations

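Unconventional myosins, many of which move vesicles or shape membranes, were a mixed group in these CPCs. Of 24 genes, 13 were tested, 7 higher, 5 lower and 1 not called in Baf60c KD, with a median log2 fold change of 0.19 (limma, adjusted p under 0.05 over all genes). Myo10, a motor of filopodia, had 8.25 and 8.16 RPKM in Baf60c KD and 4.66 and 5.03 in control (0.66), and Myo1h had 8.95 and 8.85 against 5.73 and 5.47 (0.59). The exception in size was Myo18b, a sarcomeric myosin of striated muscle, with 8.13 and 8.22 RPKM in Baf60c KD and 29.2 and 29.5 in control (−1.73). Myo1c was lower by less (10.3 and 9.88 RPKM against 16.2 and 16.3, −0.64). With median-ratio scaling 5 were higher, Myo1e and Myo19 no longer being called.

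Of the kinases and phosphatase subunits that set light chain phosphorylation, 9 of 11 were tested, 2 higher, 5 lower and 2 not called. The cardiac light chain kinase Mylk3 was higher in Baf60c KD (10.9 and 10.8 RPKM against 7.19 and 6.93, log2 fold change 0.55, limma adjusted p = 1.18e-05), while its main sarcomeric substrate genes, the regulatory chains Myl2 and Myl7, were lower. Ppp1r12b, a myosin phosphatase subunit of striated muscle, was lower (1.09 and 1.16 RPKM against 2.21 and 2.49, −0.66), as was Mylk (0.374 and 0.423 against 0.659 and 0.775, −0.30). Ppp1r12c (0.15) was called higher as deposited and not with median-ratio scaling (adjusted p = 0.211).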
